A study of Solanum lycopersicum with 2 samples.

Results

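Xylem cells were picked from single cells of the tomato root by the genes that build the thick wall of water-conducting cells. A cell was a member when it held UMIs (molecular barcodes that each stand for 1 transcript caught from a cell) from at least 2 of 5 genes: the secondary wall cellulose synthases Solyc09g072820, Solyc07g005840 and Solyc02g072240, and the VND-type NAC transcription factor genes Solyc06g065410 and Solyc11g018660. Only cells with at least 500 UMIs and at most 1% of UMIs from organelle genes were considered. This gave 170 members of 22634 cells, 78 of 12403 in replicate 1 and 92 of 10231 in replicate 2. Members made up 0.629% of replicate 1 (exact 95% binomial interval 0.497 to 0.784) and 0.899% of replicate 2 (0.726 to 1.10), or 0.764% ± 0.191 (SD, n = 2). The intervals cover counting error only. The 2 libraries differed in this share by 1.43-fold.

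Both libraries came from wild-type tomato (Solanum lycopersicum) of the cultivar M82, line LA3475, and belonged to 1 group with no treatment or mutant beside it. Root tips of about 3 cm were cut 7 days after sowing from 50 to 100 pooled primary roots per sample, and their walls were digested to free protoplasts, which were tagged on a droplet platform. How many cells with thick walls were lost in the digestion was not measured. The labels do not say whether the 2 samples came from separate sowings, so the p-values measure only the spread between these libraries.

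Xylem vessels carry water from the root to the shoot. As they mature, their cells lay down a secondary wall of cellulose, xylan and lignin inside the primary wall, and then empty themselves by programmed cell death. In Arabidopsis, a dedicated set of cellulose synthases spins the cellulose of this wall, and VND-type NAC factors switch on both the wall enzymes and the proteases that digest the cell content.

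Depth differed between the libraries, with 187215851 UMIs in replicate 1 and 81175339 in replicate 2. Members were close to the other cells of their own library in depth. Their median was 9640 UMIs against 8057 in replicate 1 and 3891.5 against 3799 in replicate 2, with 3358 against 2772 genes and 1686.5 against 1787 genes. Of their UMIs, 2.75% and 3.04% came from genes that the study lists as induced by protoplasting, against 4.59% and 5.57% in the other cells. The libraries shared 38 barcodes, none of them between members of both, and 2 members had a barcode that was also present in the other library. Levels are given as CPM, counts per 1000000 UMIs of the pooled cells over the genes kept.

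The cellulose synthases were by far the more abundant of the genes that chose the members. These values describe the choice and were not tested. Solyc09g072820 stood at 734 CPM in members and 2.28 CPM in other cells of replicate 1, and at 1116 and 3.42 CPM in replicate 2. Solyc07g005840 reached 434 and 790 CPM in members of replicates 1 and 2, and Solyc02g072240 reached 719 and 1167 CPM. The transcription factor genes were lower, with 79.8 and 58.3 CPM for Solyc06g065410 and 25.8 and 37.0 CPM for Solyc11g018660. All 5 genes were therefore seen at the same order of level in both libraries, and none of them passed 3.42 CPM outside the members.

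**Figure D1:**
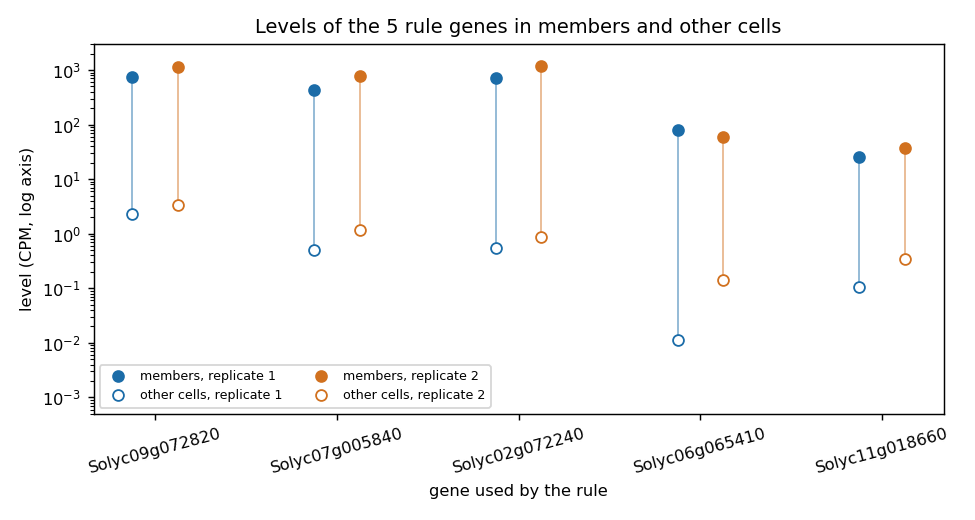
Levels of the 5 rule genes, in CPM on a log axis, pooled over members (filled) and over all other cells (open) of each library. In each library the cellulose synthases lie above the NAC genes in members, and the highest level in other cells is 3.42 CPM.

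How much of a gene's RNA lay in these few cells also differed. Members held 90.7% and 92.6% of all UMIs of Solyc02g072240 and 86.5% and 86.3% of those of Solyc07g005840. For Solyc06g065410 the share was 98.1% and 78.8%, for Solyc09g072820 70.5% and 75.1%, and for Solyc11g018660, the least confined, 64.2% and 50.0%. By cells, Solyc09g072820 was the rule gene most often met outside the members, in 2.68% and 2.23% of other cells. Cells that carry suberin genes gave a background from another cell type. Among such cells (2 or more of 12 suberin genes, members left out), a UMI of Solyc09g072820 was present in 4 of 122 and 18 of 321, that is 3.28% and 5.61%, at a median depth of 6966 and 2338 UMIs for all such cells. For Solyc06g065410 the same count was 0 of 122 and 0 of 321.

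Most members were recognised by cellulose synthases rather than by the NAC genes. A UMI of Solyc09g072820 was present in 97.4% and 93.5% of members, of Solyc07g005840 in 78.2% and 81.5%, and of Solyc02g072240 in 64.1% and 72.8%. Solyc06g065410 was seen in 39.7% and 30.4% of members and Solyc11g018660 in 26.9% and 17.4%. No member lacked all cellulose synthases. All 3 of them were present in 39 members of replicate 1 and 50 of replicate 2. The commonest combination was these 3 with no NAC gene, in 17 and 27 cells, followed by the same 3 with Solyc06g065410, in 12 and 17 cells. Solyc09g072820 with Solyc07g005840 alone was found in 11 and 13 cells.

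A UMI of a NAC gene was found in a larger share of the cells that carried all 3 cellulose synthases than of those with 1 or none. Of cells with all 3 cellulose synthases, 22 of 39 in replicate 1 (56.4%) and 23 of 50 in replicate 2 (46.0%) also had a UMI of a NAC gene. The share was 1.55% and 1.60% in cells with exactly 1 cellulose synthase, and 0.161% and 0.358% in cells with none. Median depth was 6701 and 3441 UMIs in cells with all 3, 19117.5 and 8555 in cells with 1, and 7695 and 3674 in cells with none. The part of depth in these shares was not tested.

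The edge of the rule lay between cells with 1 and with 2 of the genes. Exactly 2 genes were carried by 26 and 34 members, 3 genes by 27 and 33, 4 genes by 19 and 20, and all 5 by 6 and 5. Just outside stood 527 and 404 cells with 1 gene. Of the members, 10 and 12 held only 2 UMIs of the rule genes in all, the fewest that the rule admits, while the median was 13.5 and 12 and the highest 276 and 268.

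Whether the members were alike in other genes was asked with genes read in the library that had not picked them. In each library the 50 genes with the highest ratio of member to other CPM were picked (5 CPM added to both levels, at least 30 member UMIs, the 5 rule genes left out), and 43 of the 50 were the same in both. Of the 50 picked in replicate 1, all 50 were higher in members of replicate 2, by a median of 5.80 on the log2 scale and at least 4.26. Of those picked in replicate 2, all 50 were higher in members of replicate 1, by a median of 5.54 and at least 2.77. Across the 21677 genes outside the rule, none of which is an independent replicate, the pooled members of the 2 libraries had a Pearson correlation of 0.93 on log2(CPM + 1).

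The share of a cell's UMIs that came from the 50 genes picked in the other library rose with the number of rule genes it carried. In replicate 1 its median was 0% in cells with no rule gene, 0.00521% with 1, 0.800% with 2, 3.84% with 3, 6.79% with 4 and 8.16% with 5. In replicate 2 the medians were 0%, 0.0106%, 1.36%, 6.25%, 10.2% and 11.0%. Among cells with at least 1 rule gene, the largest step in ratio lay at the edge of the rule, between 1 and 2 genes, in both libraries. The genes were picked for their ratio of members to other cells, which favours a step there, so it does not show a natural boundary. Members with exactly 2 genes ranged from 0% to 10.0% in replicate 1 and from 0% to 14.2% in replicate 2, so they included cells like those with 5 genes and cells like the rest of the root.

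**Figure D2:**
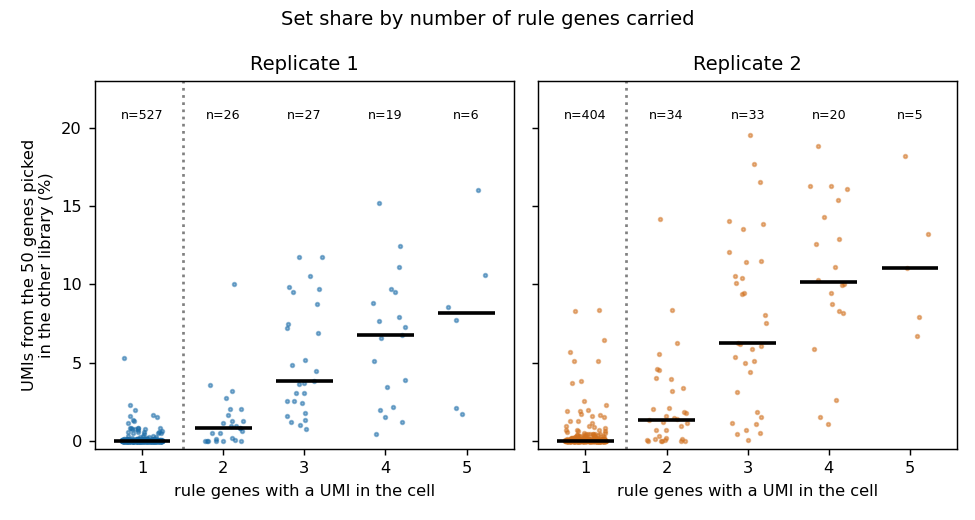
Each point is 1 cell that carries 1 to 5 of the rule genes, with the share of its UMIs from the 50 genes picked in the other library (percent). Black bars are medians, n is the number of cells, and the dotted line is the edge of the rule. The medians step up from 0.800% to 8.16% between 2 and 5 genes in replicate 1 and from 1.36% to 11.0% in replicate 2, while a few cells with 1 gene also lie high.

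A share above 1% was reached by 60 of 78 members in replicate 1 and 74 of 92 in replicate 2. The 1% line was drawn for description only, and 51 and 120 cells lay between 0.5% and 2%. Outside the members, 9 and 20 cells with 1 rule gene and 5 and 9 cells with none also passed 1%. These non-members were shallow, with a median of 2874.5 and 1389 UMIs. The 18 members of each library at or below 1% were deep, with medians of 31770.5 and 10462 UMIs against 7356 and 3292.5 UMIs for the members above it, and 16 and 14 of them carried exactly 2 rule genes. The part of depth in meeting the rule was not tested beyond thinning. Each cell was thinned at random to 2000 UMIs, with 2128 and 3241 shallower cells left out, among them 13 and 30 members. After this 36 of 10275 cells (0.350%) and 40 of 6990 cells (0.572%) met the rule. All of these came from the 65 and 62 members that remained. The median share of the 50 genes in them was 7.45% and 9.36%. In all members unthinned, a larger set of cells, it was 2.91% and 5.46%.

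At the level of genes, a small set was nearly confined to the members. Of genes with at least 20 UMIs, 94 in replicate 1 and 87 in replicate 2 had 50% or more of their UMIs in members, although members held only 0.723% and 0.893% of all UMIs. Both libraries shared 76 of them, 80.9% of the first list and 87.4% of the second. At 90% or more the lists held 31 and 17 genes, of which 15 were shared.

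Members were then compared with all other cells gene by gene, on UMIs summed per library and class, in edgeR's quasi-likelihood test with the library as a block. Of 17341 genes tested, 1380 were higher and 1486 lower in members at a Benjamini-Hochberg adjusted p under 0.05, which is 7.96% and 8.57% of the genes, 16.5% together. The median log2 fold change over all genes was −0.16. More than 4-fold differences were commoner among the higher genes, 566 against 353. Members were summed over far fewer UMIs of the genes kept, 1315854 and 702668 against 177212596 and 75941394 in other cells. The part of this in the imbalance was not tested. In both libraries taken alone, 1375 of the higher and all 1486 lower genes kept their direction. The genes were called on these same 2 libraries, which favours such agreement, so it is a description only. The counts depended on the model, with 473 higher and 81 lower genes without the library block, and 1143 and 769 in the Wald test of DESeq2.

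The highest of these genes had almost no RNA elsewhere in the root. The 12 with the highest log2 fold change among those with at least 30 member UMIs in each library lay between 10.95 and 12.30, and none of the 12 is described by the sources used here. On UMIs summed over both libraries the most abundant of them was Solyc03g006810, with 2379 UMIs in the 78 members of replicate 1 against 69 in all other cells, and 1825 against 114 in replicate 2. That is 1808 and 2597 CPM in members against 0.389 and 1.50 CPM in other cells (log2 fold change 11.44 ± 0.32 SE, adjusted p = 1.06e-10, edgeR). Solyc12g094700, the more abundant of the pair in replicate 2, stood at 1318 and 2705 CPM against 0.356 and 1.69 CPM (11.22 ± 0.28, adjusted p = 5.07e-11, edgeR). Both genes were thus above each cellulose synthase of the rule in members of both libraries.

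SlXCP2 (Solyc04g082710) had the largest log2 fold change of the tested genes that carry a name or description here. Its name and that of SlUXS6 are labels in a picture of the study, and their match to these identifiers could not be checked against an annotation. XCP2 is a papain-like cysteine peptidase of the xylem, in Arabidopsis a vacuolar enzyme that helps clear the content of dying vessel cells. In replicate 1 it stood at 1141 CPM in members and 1.85 CPM in other cells, and in replicate 2 at 1638 and 1.87 CPM (log2 fold change 9.51 ± 0.21, adjusted p = 3.03e-11, edgeR). Members held 82.1% and 89.0% of all its UMIs. A UMI was present in 62 of 78 members (79.5%, exact interval 68.8 to 87.8) and 71 of 92 (77.2%, 67.2 to 85.3), against 1.05% and 0.858% of other cells. In suberin cells the share was 0% and 1.25%. No cell dominated, the largest holding 10.7% and 7.04% of the member UMIs.

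SlUXS6 (Solyc05g054590) is by that name one of the enzymes that make UDP-xylose, the sugar donor for xylan. It was at 502 and 1479 CPM in members against 6.19 and 11.7 CPM in other cells (log2 fold change 6.67 ± 0.21, adjusted p = 2.41e-10, edgeR). A UMI was present in 83.3% and 80.4% of members, and in 6.95% and 6.27% of other cells. It was thus detected in about as many members as SlXCP2 but was less confined to them, with 37.6% and 53.9% of its UMIs in members. In suberin cells 10.7% and 9.97% had a UMI, above the share in all other cells.

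Both genes stepped up with the number of rule genes that a cell carried. For SlXCP2 the pooled level in replicate 1 was 1.03 CPM with none of the rule genes, 12.6 with 1, 217 with 2, 1390 with 3, 1775 with 4 and 2894 with 5. In replicate 2 it was 1.24, 10.7, 252, 2059, 2637 and 5324 CPM. SlUXS6 went from 5.78 to 1143 CPM in replicate 1 and from 10.0 to 3439 CPM in replicate 2, also without a step down. The largest step in ratio lay between 1 and 2 rule genes for both.

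**Figure D3:**
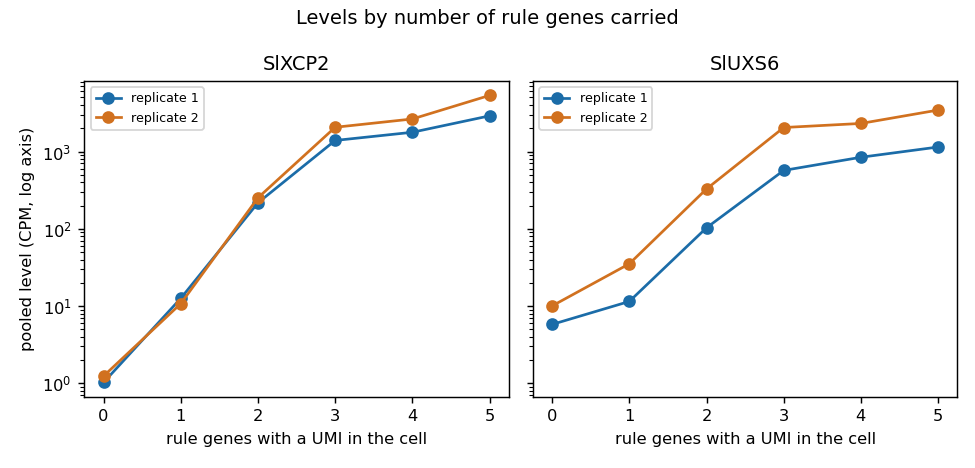
Pooled level of SlXCP2 (left) and SlUXS6 (right) in CPM on a log axis, over cells grouped by how many of the 5 rule genes they carry, with 1 line per library. In both libraries each group lies above the one before it, up to 2894 and 5324 CPM for SlXCP2 and 1143 and 3439 CPM for SlUXS6.

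Among members, the levels of these genes went together from cell to cell. These are rank correlations over the cells of 1 library, which share depth and free RNA, and are given as descriptions. The cellulose synthases and NAC genes also chose the members, which shapes the values that involve them. Summed cellulose synthase CPM against SlUXS6 CPM gave a Spearman rho of 0.80 over 78 members and 0.68 over 92. Against SlXCP2 the values were 0.61 and 0.71. The cellulose synthases among themselves gave 0.64 to 0.67 in replicate 1 and 0.64 to 0.79 in replicate 2. With the summed NAC genes, cellulose synthases gave 0.35 and 0.13, and SlXCP2 gave 0.55 and 0.23. The NAC sum was 0 in 36 of 78 and 55 of 92 members. Such ties limit rho, so these values are not like for like with the others. Per-cell levels were broad, with summed cellulose synthases from 24.6 through a median of 2484 to 17325 CPM in replicate 1, and from 50.1 through 5089 to 36891 CPM in replicate 2.

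The lowest genes had no UMI in any member. The 6 lowest with at least 30 UMIs in the other cells of each library were all at 0 in both libraries, and none of the 6 is described by the sources used here. Solyc02g071070 had 3667 UMIs in other cells of replicate 1 and 2176 in replicate 2, or 20.7 and 28.7 CPM. Against a floor of 3 counts per library, it was at least 9.08-fold lower in members of replicate 1 and 6.71-fold lower in replicate 2 (adjusted p = 8.66e-05, edgeR). Solyc01g104110, at 3.46 and 25.5 CPM in other cells, was at least 1.52-fold and 5.98-fold lower (adjusted p = 0.00170, edgeR). Both calls rest on the pooled counts being 0 in few cells, and with cells thinned to 2000 UMIs neither passed the threshold (adjusted p = 0.275 and 0.390, edgeR). Solyc02g071070 did not pass in DESeq2's Wald test either (adjusted p = 0.291), and Solyc01g104110 lost its call without the library block (adjusted p = 0.223, edgeR).

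Descriptions for single genes were at hand for 202 genes of the study's suberin work, a co-expression module and a list of late exodermal genes, of which 157 were tested. Neither list was chosen for the xylem, and the study drew both from tomato roots. The module was found by co-expression in RNA of root tissue, not of single cells, and is enriched in suberin genes. The study does not place all of its genes in an outer cell layer. Of the 157 genes, 13 were higher in members (8.28%) and 11 lower (7.01%), close to 7.96% and 8.57% of all genes tested. Their median log2 fold change was −0.0011, against −0.16 over all genes. With the 2 members that also carried suberin genes left out, 145 could be tested, 14 were higher and 29 lower, and the median was −0.79. Over all genes of that fit 8.62% were higher and 10.4% lower, with a median of −0.18, and leaving those members out itself lowers genes that go with suberin.

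Among the higher described genes, the strongest belongs by its description to a superfamily of wall enzymes, and its own activity is not given. Solyc02g068400, a pectin lyase-like protein of a superfamily that acts on pectin, was at 50.2 and 84.0 CPM in members against 0.564 and 2.70 CPM in other cells (log2 fold change 5.71 ± 0.39, adjusted p = 4.50e-07, edgeR). Its UMIs lay in 17 of 78 and 24 of 92 members, and 1 cell held 40.9% of those in replicate 1. Members held 39.8% and 22.3% of all its UMIs. It was also met in 13.1% and 8.72% of suberin cells, against 21.8% and 26.1% of members. In all other cells the share was 0.576% and 1.19%. Solyc03g080180, a putative O-methyltransferase, was detected in 66.7% and 65.2% of members against 10.9% and 21.7% of other cells. It stood at 293 and 398 CPM against 31.1 and 95.2 CPM (2.66 ± 0.22, adjusted p = 3.59e-06, edgeR). Suberin cells carried it too, in 42.6% and 49.5%, so it was not particular to the members. O-methyltransferases add methyl groups to small molecules, and some act on lignin precursors, but the substrate of this one is not given.

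Regulatory genes were also among the higher ones. Solyc01g111500, an R2R3MYB transcription factor, was at 28.9 and 38.4 CPM in members against 3.07 and 13.7 CPM (log2 fold change 2.39 ± 0.40, adjusted p = 0.0012, edgeR). Solyc04g081290 codes for a cytokinin riboside phosphoribohydrolase, the kind of enzyme that releases active cytokinin in its last step. It stood at 26.6 and 21.3 CPM against 2.27 and 9.06 CPM (2.50 ± 0.50, adjusted p = 0.0043, edgeR). Suberin cells carried both genes about as often as members did, so neither was particular to the members. A UMI of Solyc01g111500 was present in 15.6% and 20.2% of suberin cells against 12.8% and 18.5% of members. For Solyc04g081290 the shares were 13.9% and 8.72% against 17.9% and 7.61%. The LOB domain gene Solyc04g077990, of another plant transcription factor family, was at 17.5 and 48.4 CPM against 7.90 and 22.8 CPM (1.13 ± 0.29, adjusted p = 0.0167, edgeR), but 1 cell held 43.5% of its member UMIs in replicate 1 and 1 cell 50.0% in replicate 2. With members limited to cells with 3 or more rule genes its log2 fold change was −1.13 and did not pass the threshold (adjusted p = 0.164, edgeR).

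The other higher genes were scarcer or changed less. A kinase, Solyc10g008960, and an acyl carrier protein hydrolase, Solyc03g097390, had log2 fold changes of 4.20 and 4.40 but rested on 8 and 13 and on 5 and 9 member UMIs. An aspartyl protease, Solyc05g056450, had 9 UMIs in members of each library and a log2 fold change of 2.89. Solyc08g078510, a GRAM domain protein, was abundant in all cells, at 423 and 622 CPM in members against 176 and 453 CPM (0.87 ± 0.17, adjusted p = 0.0029, edgeR). The auxin induced-like Solyc07g048070, the aldehyde dehydrogenase Solyc06g060250 and the glycine-rich Solyc11g013100 had log2 fold changes of 1.11, 0.62 and 0.61.

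The 11 lower described genes came from several protein families. Solyc09g090980, described as a pathogenesis-related STH-2-like protein, was at 2.28 and 96.8 CPM in members against 119.9 and 267.9 CPM in other cells (log2 fold change −2.54 ± 0.50, adjusted p = 0.0038, edgeR), so its level in members differed widely between the libraries. The lipid transfer protein gene Solyc09g065430 was at 3.04 and 41.3 CPM against 27.1 and 128.8 CPM (−2.03 ± 0.31, adjusted p = 0.00065, edgeR). The cytochrome P450 gene Solyc07g062500 was at 22.0 and 11.4 CPM against 56.6 and 93.7 CPM (−1.99 ± 0.32, adjusted p = 0.00083, edgeR). A second P450 gene, Solyc10g083690, had 0 and 1 UMI in members and stood at 2.37 and 16.3 CPM in other cells. A chlorophyll a-b binding protein gene, Solyc07g047850, of the light-harvesting antenna, had no UMI in members and stood at 2.16 and 10.4 CPM in other cells, at least 2.43-fold lower in replicate 2 and within the floor in replicate 1. A spermine synthase, Solyc03g007240, a GDSL esterase/lipase, Solyc06g065530, a WRKY factor, Solyc02g093050, a glutathione S-transferase, Solyc10g084400, a CONSTANS interacting protein, Solyc06g073180, and the ELI3 gene Solyc11g011340 fell by 1.48, 1.42, 1.17, 1.14, 1.03 and 0.94 on the log2 scale. Of the 11 lower genes, 3 also passed in DESeq2's Wald test, Solyc09g065430, Solyc07g062500 and Solyc10g084400, and the other 8 lost the call there, at adjusted p from 0.0596 to 0.166. Of the 13 higher ones, 11 passed in DESeq2, the exceptions being Solyc06g060250 and SlLACS4.

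**Figure D4:**
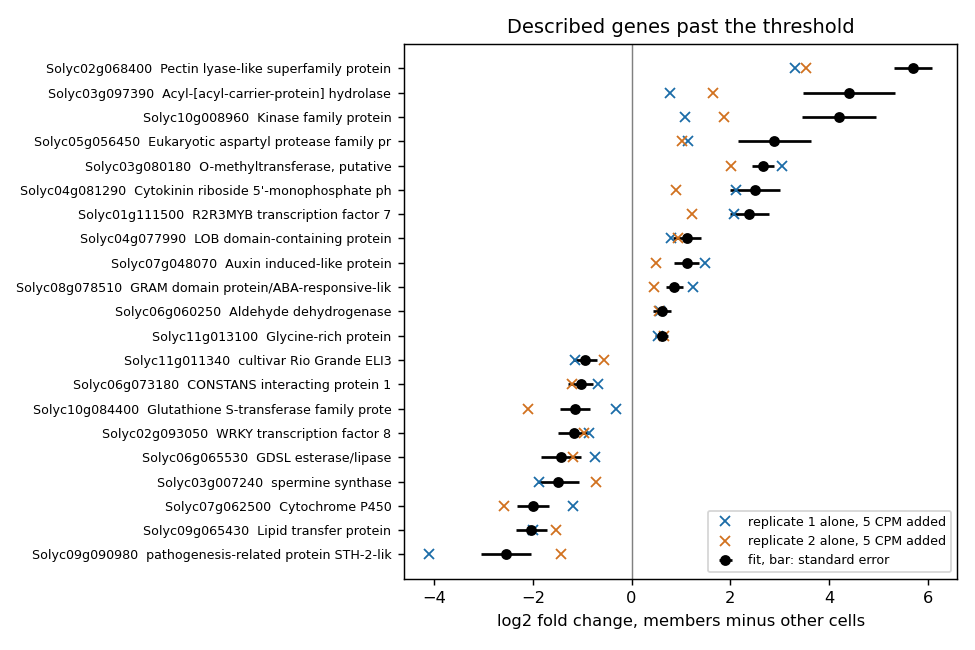
Log2 fold change of members minus other cells for the 21 described genes past the threshold that had UMIs in members of both libraries, 12 higher and 9 lower, with the standard error as a bar (black). Crosses are the ratios within each library with 5 CPM added to both levels, which pulls scarce genes toward 0, and each pair of crosses lies on the side of its fitted value.

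Lignin genes could be read only in part. Of 5 laccases, enzymes that couple lignin monomers in walls, none passed the threshold in edgeR, with 1 at an unadjusted p under 0.05 and none in DESeq2. Solyc05g052340 was the highest of them, with 3 UMIs in members of each library (2.28 and 4.27 CPM against 0.152 and 0.974 CPM, log2 fold change 2.91 ± 1.20, adjusted p = 0.134, edgeR). The lowest, Solyc06g050530, had 0 UMIs in members of either library, against 0.497 and 4.42 CPM in other cells (adjusted p = 0.194, edgeR). The peroxidase Solyc06g050440 stood at 3.80 and 39.8 CPM in members against 2.58 and 17.7 CPM (adjusted p = 0.114, edgeR), and the cinnamoyl-CoA reductase Solyc03g097170, of monolignol synthesis, at 3.04 and 1.42 CPM against 2.28 and 5.06 CPM (adjusted p = 0.828, edgeR). The reductase rested on 4 and 1 UMIs in members. Another monolignol enzyme, the 4-coumarate:CoA ligase Solyc07g008360, had a log2 fold change of 1.53 ± 1.29 on 0 and 4 member UMIs (adjusted p = 0.520, edgeR). With the 2 members that also carried suberin genes left out, the log2 fold change of the peroxidase went from 1.00 to −0.94. That of the laccase Solyc06g082240, on 0 and 28 member UMIs, went from 1.00 to −3.45. In that fit 0 of 4 laccases were higher and 2 lower, beside 8.62% and 10.4% of all genes. The ligase was not tested there. Leaving those members out itself lowers genes that go with suberin, so these values are descriptions.

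The suberin genes were rare in members apart from 1 cell. By expression the study places most of them in the exodermis of the tomato root, with SlMYB92 but not SlMYB41 or SlMYB63 among them. Suberin is a waxy polymer that seals the walls of such barrier cells. Of the 12 suberin genes, 9 were tested, and 1, SlLACS4, a long-chain acyl-CoA synthetase, was called higher (log2 fold change 2.14 ± 0.66, adjusted p = 0.0450, edgeR; none in DESeq2). It had 0 UMIs in members of replicate 1 and 35 in replicate 2, of which 34 lay in 1 cell. The same cell held 80 of the 81 UMIs of SlASFT, the feruloyl transferase of suberin synthesis, and all 13 of SlGPAT4, a glycerol-3-phosphate acyltransferase. In all it carried 9 of the 12 suberin genes with 152 UMIs, 93.8% of those in members of its library, but only 2 UMIs of the rule genes, and none of its UMIs came from the 50-gene set. Its 10007 UMIs were as many as or more than those of 76.2% of the cells in its library.

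Replicate 1 had 1 such member too, with 4 suberin UMIs and 79107 UMIs in all, carrying 4 rule genes. With both cells left out of the members (chosen after these values were seen), SlLACS4 had a log2 fold change of −2.61 and SlASFT one of −4.16. Leaving out members for their suberin UMIs, while such cells stay among the others, itself lowers these genes, so the values are descriptions with no test. Late exodermal genes, which overlap the suberin genes, went from 5 higher and 3 lower of 48 tested to 4 higher and 15 lower of 41, beside 8.62% higher and 10.4% lower of all genes in that fit. SlKCS2b, a 3-ketoacyl-CoA synthase that lengthens fatty acids, was the suberin gene most spread over members, with a UMI in 7 of 78 and 8 of 92 (8.97% and 8.70%) against 0.892% and 2.83% of other cells, a log2 fold change of 1.05 that did not pass the threshold (adjusted p = 0.244, edgeR). SlMYB63, SlMYB92 and SlCYP86A had no UMI in members of either library. In all cells kept they had only 4 and 7, 5 and 31, and 44 and 65 UMIs. With so few UMIs, none in members does not show absence.

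**Figure D5:**
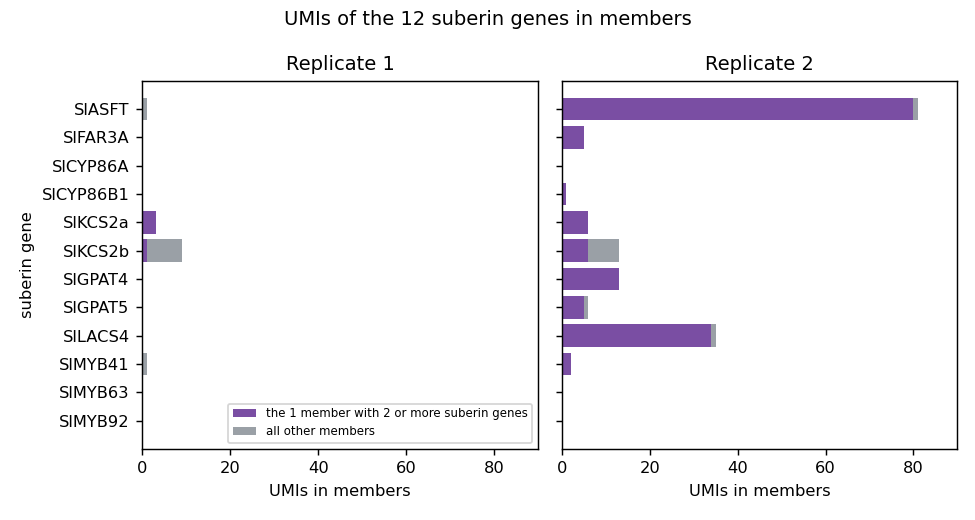
UMIs of each of the 12 suberin genes in members of replicate 1 (left) and replicate 2 (right), split into the 1 member that carries 2 or more suberin genes (purple) and all other members (grey). In replicate 2 that cell holds 80 of 81 SlASFT UMIs, 34 of 35 SlLACS4 UMIs and all 13 SlGPAT4 UMIs.

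Members with a UMI of a NAC gene were compared with members without, to see what goes with detection of the factors. They numbered 42 and 36 in replicate 1 and 37 and 55 in replicate 2, and differed in depth, with medians of 16625 against 4223 UMIs and 4723 against 2339 UMIs. The part of depth in this contrast was not tested apart from thinning, which left 11 of 36 and 14 of 40 members with a NAC UMI. Of 5603 genes, 0 (0%) passed the threshold in edgeR in either direction, with a lowest adjusted p of 0.0514, which does not show that the 2 kinds of member are alike. At an unadjusted p under 0.05 there were 955, of which 458 were higher and 497 lower, and DESeq2's Wald test called 14 higher and 51 lower. SlXCP2 was at 1485 and 2291 CPM with a NAC UMI against 441 and 1054 CPM without (log2 fold change 1.46 ± 0.22, adjusted p = 0.0816, edgeR). For SlUXS6 the levels were 554 and 1746 CPM against 397 and 1240 CPM (0.51 ± 0.18, adjusted p = 0.240, edgeR). Both genes stood higher with a NAC UMI in each library, and neither difference passed the correction over all genes.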

How the data were processed

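Single-cell RNA sequencing was carried out on 2 libraries of tomato root protoplasts. The authors aligned the reads with cellranger 6.0.1 (submitters' processing notes), and what they deposited is a matrix of UMI counts, not normalized, for the barcodes called as cells. Members and lists were chosen with earlier results of these data known. Cells and genes were filtered with the limits of the study's methods: organelle genes, genes in 3 cells or fewer and 820 matched protoplasting-induced genes were left out, which kept 21682 of 34716 genes. Doublets were kept, since the methods name no step that removes them, and the 5% of cells with the most UMIs were left out in an alternative.

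Counts were summed per library and class, giving 4 sums, without the 5 rule genes. Sums of the same library share its cells' preparation and run, so the library was a block. Tests used edgeR 4.0.16 (TMM, filterByExpr, glmQLFit, glmQLFTest) in R 4.3.3, with Benjamini-Hochberg adjustment over all genes tested and a threshold of 0.05. Standard errors were derived from each gene's F statistic and log2 fold change. Alternatives were DESeq2 1.42.0, other member rules, cell filters, thinning (seed 1) and single libraries. Scripts were tested on simulated data. Intervals are exact (Clopper-Pearson), and both they and the floor of 3 counts cover counting error only.

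Named genes were the 12 highest and 6 lowest among genes past the threshold that moved alike in each library and had 30 or more UMIs per library (in members for higher, in other cells for lower genes). Of the 12, identifiers are printed for the 2 with the most member UMIs, and of the 6 for the 2 lowest. SlXCP2 and SlUXS6 fall outside this rule and were chosen after their values were seen, because the study names them, as were the described genes. Wall, lignin, cell death and transcription factor lists were planned by pattern on a gene table, but no row of the table at hand carries the identifiers of the files, so patterns could be applied to the study's own descriptions only. Of the module, 162 of 180 identifiers matched, and of the late exodermal list all 50. No sequence is shown.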

Additional observations from a re-analysis of the deposited data

How the results depend on the processing

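The members' depth limits what can be read: the 170 cells held 1315854 and 702668 UMIs of the genes kept, so 3 counts correspond to 2.28 and 4.27 CPM, and genes below that cannot be read.

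The member share moved from 0.764% to 0.493% with 3 or more rule genes required and to 0.461% in thinned cells. It stayed within 1 SD under the other cell and rule settings. Requiring 3 or more genes also gave 2525 lower genes, with 14 late exodermal and 22 module genes lower, against 1486, 3 and 9. Requiring 2 cellulose synthases gave 15 module genes higher, against 9. DESeq2's Wald test gave 769 lower genes, 3 late exodermal genes higher and 1 lower, and 3 module genes lower. Without the replicate block, 473 genes were higher and 81 lower, with 0 late exodermal genes in either direction (13 of 48 at an unadjusted p under 0.05 with the block), and 1 module gene higher and 0 lower. Of the 24 described genes called, only Solyc02g068400 kept its call there (adjusted p of the others 0.0613 to 0.550). Thinning gave 587 higher and 832 lower genes, with 3 late exodermal and 4 module genes higher. Without the 2 members that carried suberin genes, 15 late exodermal and 25 module genes were lower. Between members with and without a NAC UMI, DESeq2 gave 14 higher and 51 lower and no filter on low counts gave 244 and 383 of 16639 genes, against 0 and 0. A single library leaves no test for that contrast and no count. The cause of these moves was not tested.

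Without replicate 1 or replicate 2, between 1376 and 1379 of the 1380 higher genes, and all 1486 lower genes, kept their direction in the library left. That library had helped to call them, so this is a description and no separate test. Reversed values on the log2 scale were those of SlLACS4 (−10.62) and SlASFT (−13.18) with 3 or more rule genes, and of SlASFT (−11.31) in thinned cells, all with 0 UMIs in the members of these settings. The LOB domain gene turned to −1.13 and −1.52 under these settings, and the phosphoribohydrolase gene to −8.97 in thinned cells, where its members had 0 UMIs. SlLACS4 and SlASFT also turned without the suberin-carrying members (−2.61 and −4.16) and without replicate 2 (−0.20 and −0.89, against 2.12 and 1.30 without replicate 1).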
